A study of Homo sapiens with 24 samples.

Results

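The response of Rab25-expressing A2780 cells to fetal bovine serum (FBS) was measured by setting the 2 arrays of FBS-treated Rab25 cells against the 4 arrays of serum-starved Rab25 cells, 6 of the 24 arrays in the series. These arrays were taken by their labels, and the experiment (1 or 2) was kept as a block. A2780 is a human ovarian cancer line, used here as an empty-vector line (pcDNA) and a line transfected with RAB25, with 12 arrays each, hybridised to Affymetrix arrays that measured 11940 named genes. All cells had been starved of serum for 8 h. The Rab25 FBS group then received 5% FBS (1 array in each experiment), and other Rab25 arrays received 10 ng/ml EGF, 10 ng/ml IGF or 5 ng/ml TGF beta (2 arrays each, 1 in each experiment), while the Rab25 starved group, labelled as control, received no factor (2 arrays in each experiment). The pcDNA line had the same 5 groups. The labels conflict on how long FBS was present: their treatment protocol has 8 h for experiment 1 and 24 h for experiment 2, but their source names have 24 h throughout, and the labels used here do not say how long starved cells were kept. Each line is a single transfected line, and no label says whether its arrays came from separate cultures, so p-values measure only the spread between these samples. Anything else that set the experiments apart cannot be told apart from exposure time.

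Serum carries growth factors, lipids, lysophospholipids and bone morphogenetic proteins (BMPs). BMPs act through SMAD1/5/8 to switch on the ID genes, growth factor signalling through AKT keeps FOXO transcription factors out of the nucleus, sterols hold back the SREBP factors that drive cholesterol synthesis, and the factor ATF4 raises amino acid transport and synthesis genes when amino acids run short or the endoplasmic reticulum is stressed. RAB25, a GTPase related to RAB11, helps return integrins and receptors to the cell surface.

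The transfected gene was read first. On the log2 scale RAB25 gave 8.66 and 8.18 in the Rab25 FBS arrays, against 8.82, 8.21, 8.67 and 9.08 in the Rab25 starved arrays, and 4.90 to 5.60 over the 12 pcDNA arrays. All Rab25 arrays thus lay above all pcDNA arrays, the FBS and starved values overlapped, and the difference of -0.27 (SE 0.19) did not pass the threshold (limma adjusted p = 0.391). Array medians over all probe sets were 7.32 and 7.02 with FBS, against 7.20 to 7.28 in starved Rab25 cells, and 7.02 was the lowest of the 24 (7.07 to 7.35 in the other 22). Actin control probe sets, whose 3' signal less their 5' signal reads RNA integrity, differed by 0.63 to 0.72 with FBS and 0.68 to 1.07 in starved Rab25 cells.

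Between the arrays labelled Rab25 FBS and Rab25 starved, 922 of 11940 genes differed by limma at an adjusted p under 0.05 (7.72%). Of these, 315 were higher (2.64%) and 607 lower (5.08%), and 105 changed at least 2-fold (0.879%), 66 higher and 39 lower. The shares of 2.64% and 5.08% stand beside each count of list members called over both experiments of Rab25 cells below. All 922 had the same sign in both experiments. That is no separate support, since each call rests on the same 2 FBS arrays. Sizes could lie far apart, as for AGR2 at 4.70 in experiment 1 and 0.06 in experiment 2. In both lines and both experiments the sign was shared by 198 of the 315 higher genes and 417 of the 607 lower genes. Genes of connective tissue, mammary epithelium and macrophages and the serum-induced ID1 were higher in the arrays labelled Rab25 FBS, and amino acid and stress genes of the ATF4 programme and FOXO targets were lower. Whether these arrays hold RNA of the labelled cells alone was not tested, so the values of tissue markers describe the arrays and cannot be read as a response of Rab25 cells to serum. Words such as changed, rose, fell and response thus compare arrays by their labels throughout.

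COL3A1, which encodes the alpha chain of type III collagen and is a marker of fibroblasts, showed the largest rise in the comparison. It gave 12.76 and 11.003 on the log2 scale in the Rab25 FBS arrays, against 5.30, 5.21, 5.17 and 5.17 in the Rab25 starved arrays. Both FBS arrays stood far above every starved array (log2 6.67, SE 0.36, limma adjusted p = 1.23e-08). The starved level lay below the 25th percentile of probe sets on those arrays, where a value cannot be told from background, so no fold is given for it or for the other tissue markers near that level. LUM, which encodes the proteoglycan lumican of the same matrix, gave 10.48 and 7.57 with FBS, against 4.59, 4.66, 4.84 and 4.83 in starved cells (log2 4.30, SE 0.43, limma adjusted p = 2.87e-05). SCGB2A2, which encodes mammaglobin, a secreted protein of mammary epithelium, gave 8.57 and 8.84 with FBS, against 5.43, 5.69, 5.90 and 5.57 in starved cells. The fitted difference was 3.06 on the log2 scale (SE 0.14, limma adjusted p = 9.92e-10), over starved values around that percentile. ID1, a BMP-induced inhibitor of helix-loop-helix factors, gave 9.99 and 11.84 with FBS, against 7.49, 7.54, 7.88 and 7.99 in starved cells (log2 3.19, SE 0.28, limma adjusted p = 3.74e-06). In these 4 genes both FBS arrays lay above all 4 starved arrays. How often that held over all genes was not counted, and APOC3, which was not called, did not overlap either.

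The first 3 of them differed from ID1 in the vector line. COL3A1 gave 5.43 and 5.23 in the pcDNA FBS arrays, against 6.60, 5.12, 5.28 and 5.26 in the pcDNA starved arrays, where one starved array of experiment 1 was the highest of the 22 arrays other than Rab25 FBS. LUM gave 4.67 and 4.79 and SCGB2A2 gave 5.70 and 5.45 in pcDNA FBS arrays, within their pcDNA starved ranges of 4.58 to 4.86 and 5.28 to 5.78. ID1 gave 10.31 and 11.96 in pcDNA FBS arrays, against 7.69, 7.56, 7.99 and 7.70 in pcDNA starved arrays. The difference in response between the lines passed the threshold for COL3A1 (log2 6.91, SE 0.51, limma adjusted p = 1.54e-06), LUM (4.27, SE 0.61, adjusted p = 0.0041) and SCGB2A2 (3.01, SE 0.19, adjusted p = 2.98e-07), but not for ID1 (-0.21, SE 0.39, adjusted p = 0.897).

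**Figure D1:**
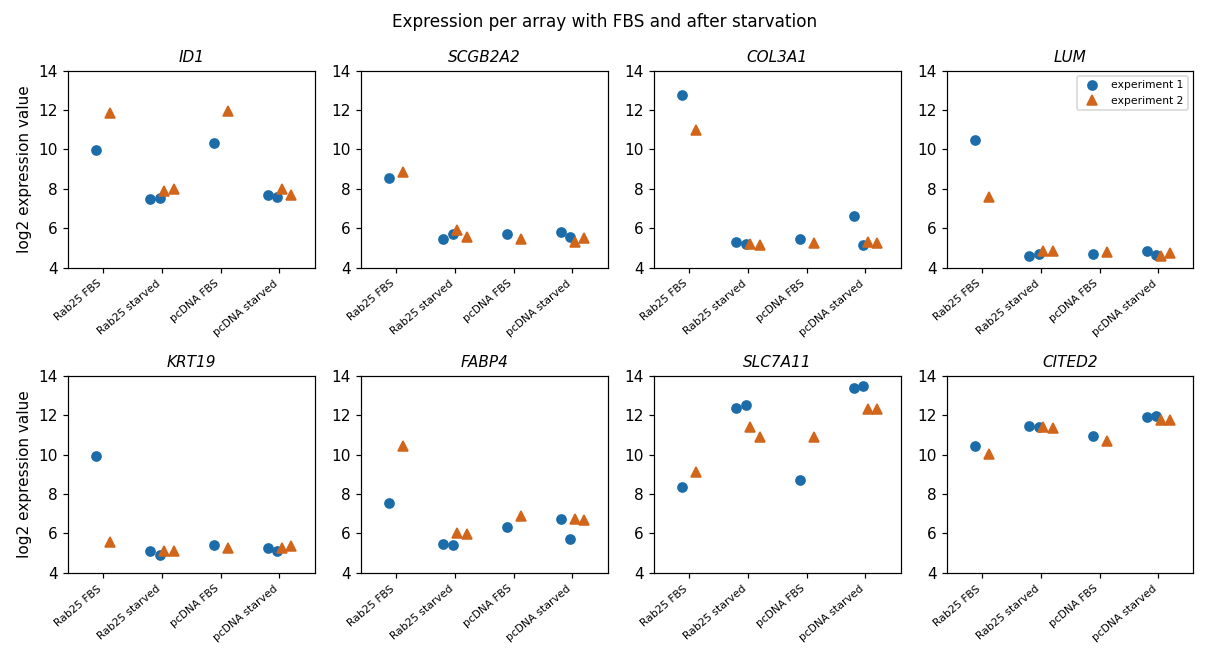
Log2 expression value (y axis) of 8 genes in each FBS and starved array of the Rab25 and pcDNA lines, with circles for experiment 1 and triangles for experiment 2. COL3A1, LUM, SCGB2A2, KRT19 and FABP4 stand high in one or both Rab25 FBS arrays, whereas ID1 is high and SLC7A11 and CITED2 are low with FBS in both lines.

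The connective tissue genes formed the longest run. Of 43 measured stromal fibroblast and matrix markers, 16 were called higher in the Rab25 FBS arrays (2.64% of all genes were) and 0 lower. Their median was 0.37 on the log2 scale, against -0.05 over all genes. By experiment it was 0.57 in experiment 1 and 0.10 in experiment 2, against -0.01 and -0.09 over all genes. Members could differ in sign, as FAP did at 1.12 in experiment 1 and -0.42 in experiment 2. Collagen genes led it. COL1A2, of type I collagen, gave 11.73 and 9.54 with FBS, against 6.48, 6.50, 6.33 and 6.22 in starved cells. COL1A1, its partner chain, gave 11.53 and 10.60 with FBS, against 8.02, 8.02, 8.16 and 8.49. COL6A3, of type VI collagen, gave 10.21 and 9.23 with FBS, against 6.22, 6.20, 6.54 and 6.999. In each of the 3 the FBS arrays lay above the starved arrays, by 4.25 (SE 0.35), 2.89 (SE 0.45) and 3.22 (SE 0.37) on the log2 scale (limma adjusted p = 2.62e-06, 0.00142 and 0.000143). POSTN, which encodes the matrix protein periostin, gave 11.67 and 7.82 with FBS, against 5.39, 5.29, 5.41 and 5.25 (log2 4.41, SE 0.57, limma adjusted p = 0.000385). Other markers were not called: DCN (decorin) gave 11.81 and 11.84 with FBS, against 12.03, 12.21, 11.74 and 11.72 in starved cells, and PDGFRA gave 6.22 and 6.36, against 6.36, 6.28, 6.48 and 6.53. The mean level of the list was 8.07 and 7.22 in the FBS arrays, against 6.64 to 6.75 in starved Rab25 arrays. In pcDNA arrays it was 6.87 and 6.80 with FBS, against 6.66 to 6.83 in starved cells. COL6A3 was higher in the pcDNA FBS array of experiment 1 too, at 8.03, against 6.67 and 6.26 in starved cells. In experiment 2 it gave 7.13, against 7.39 and 7.06. The other probe sets of these genes did not all follow: COL3A1 had 3, at -0.14 to 6.67 with 2 called, COL1A1 had 4, at -0.06 to 2.89 with 3 called, and POSTN had 2, at 0.21 and 4.41. On bulk RNA, more cells of a type and more RNA per cell cannot be told apart.

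Mammary epithelial genes were higher too, mostly in the FBS array of experiment 1, with 3 of 27 called higher in experiment 2 (2.4% of all genes) and 13 in experiment 1 (14% of all genes). Of 27 measured breast epithelium markers 7 rose and 0 fell (median 0.31), and the mean level of the list was 7.74 and 6.83 with FBS, against 6.50 to 6.63 in starved cells. KRT19, a keratin of simple epithelium, gave 9.95 in experiment 1 and 5.54 in experiment 2 with FBS, against 5.09, 4.90, 5.11 and 5.12 in starved cells. AGR2, which encodes a disulfide isomerase of secretory epithelium, gave 9.68 and 5.14 with FBS, against 5.00, 4.96, 5.18 and 4.97. TFF1, an oestrogen-induced trefoil factor of breast cells, gave 8.30 and 5.55, against 5.402, 5.07, 5.60 and 5.30. For these 3 genes the FBS array of experiment 1 stood apart and that of experiment 2 lay at or within 1 unit of the starved arrays. SCGB1D2, which encodes the lipophilin partner of mammaglobin, ran the other way, with 5.67 and 7.54 with FBS, against 5.22, 5.23, 5.09 and 5.45. The response in experiment 2 minus that in experiment 1 was -4.52 for KRT19 (SE 0.15, limma adjusted p = 5.34e-06), -4.64 for AGR2 (SE 0.15, adjusted p = 5.34e-06), -2.96 for TFF1 (SE 0.29, adjusted p = 0.000791) and 1.82 for SCGB1D2 (SE 0.21, adjusted p = 0.0016). The AGR2 and TFF1 calls of the whole comparison were lost without the FBS array of experiment 1, at 0.11 and 0.20 (limma adjusted p = 0.602 and 0.591). PGR, ESR1 and KRT5, further markers of breast cells, gave -0.07, -0.03 and -0.15 and were not called.

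A few adipocyte genes and more of the macrophage genes were higher as well. FABP4, the fatty acid binding protein of adipocytes, gave 7.54 and 10.43 with FBS, against 5.49, 5.43, 6.01 and 5.96 in starved Rab25 cells (log2 3.26, SE 0.39, limma adjusted p = 0.000197). CD36, a fatty acid translocase, gave 5.87 and 7.35 with FBS, against 5.37, 5.12, 5.19 and 5.10 (log2 1.41, SE 0.24, limma adjusted p = 0.00291). Both were higher in experiment 2, by 2.36 (SE 0.45, limma adjusted p = 0.0109) for FABP4 and 1.58 (SE 0.19, adjusted p = 0.00169) for CD36. They were the 2 of 12 adipocyte markers that rose, and 0 fell. The list as a whole hardly moved, with a median of 0.03, against -0.05 over all genes. Its median was -0.025 in experiment 1 and 0.10 in experiment 2. ADIPOQ (adiponectin), which defines the mature adipocyte, gave 5.08 and 5.08, against 5.19, 4.81, 4.85 and 4.94, and PLIN1 gave 5.88 and 5.92, against 5.77 to 6.04. Of 19 macrophage and myeloid markers 7 rose and 0 fell (median 0.24). TYROBP, an adaptor of myeloid receptors, gave 6.59 and 6.98 with FBS, against 5.10, 5.23, 5.16 and 5.06 (log2 1.65, SE 0.11, limma adjusted p = 3.1e-07). C1QB, a complement chain made by macrophages, gave 6.72 and 6.16, against 4.98, 5.07, 4.98 and 5.14 (log2 1.40, SE 0.13, limma adjusted p = 5.45e-06), and the scavenger receptor CD163 rose by 0.72 (SE 0.10, adjusted p = 0.00057). Of the remaining 8 tissue lists, each with 7 to 17 measured members, none had more than 1 member higher: T and NK cell (CD52, 0.75), endothelium (PECAM1, 0.44), smooth muscle (TAGLN, 2.04), erythroid (HBB, 0.52) and skeletal muscle (MYBPC1, 0.30) had 1 each, and B and plasma cell, liver and brain had 0. TAGLN was not particular to FBS. In Rab25 cells it gave 9.66 and 8.59 with FBS, 8.11 and 9.07 with IGF, 8.69 and 9.17 with TGF beta, and 7.30 and 8.30 with EGF. Against these other factors it was not called (0.68, limma adjusted p = 0.151). The 10 B and plasma cell markers had a median of 0.08 in experiment 1 and -0.07 in experiment 2, against -0.01 and -0.09 over all genes. Their largest responses in experiment 1 were those of POU2AF1 (0.83, SE 0.09), IGHM (0.75, SE 0.12) and JCHAIN (0.62, SE 0.10). In experiment 2 these gave 0.06, 0.15 and -0.01. ROBO4 (-0.71) of endothelium, SLC4A1 (-0.32) of erythroid cells, and SYT1 (-0.79) and MBP (-0.72) of brain were lower. Several of these calls were lost in most alternatives run: PECAM1 in 9 of 14, SLC4A1 in 11 of 14, SYT1 in 10 of 15 and MBP in 11 of 15.

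A count was also made over all genes without a list. It was drawn from the same 2 FBS arrays, so it is no separate support for the tissue lists. The genes counted were not tallied by tissue, and TXNIP, from the list of FOXO-linked genes, was among them. In the Rab25 FBS array of experiment 1, 73 genes stood at least 2-fold above every one of the 22 arrays of other groups (0.613% of 11907 genes compared), and in that of experiment 2, 19 did (0.16%). In both arrays it was 11 (0.0924%), which is 15.1% of the first set and 57.9% of the second. Each of the other 22 arrays, set against the arrays of the other groups in the same way, held 0 to 4 such genes. MGP (matrix Gla protein) gave 11.56 and 6.97 with FBS, against at most 5.69 in the 22 arrays. IGHG3, an immunoglobulin heavy chain gene of plasma cells, gave 11.62 in experiment 1 and 5.64 in experiment 2, against at most 5.59. The hepatic and stromal selenoprotein gene SELENOP gave 9.41 and 7.09, against at most 5.43. Chosen for mention after their values were seen, ERBB2, the receptor gene amplified in part of breast cancers, gave 10.99 and 8.46, against at most 9.25, and EPCAM, of epithelial adhesion, gave 8.49 and 5.12, against at most 5.29. In experiment 2 alone stood MMP12, which encodes the macrophage elastase, with 8.56 (5.53 in experiment 1), and PLIN2, a lipid droplet coat gene, with 7.01 (5.49 in experiment 1), against at most 5.65 and 5.31. Of the 315 genes called higher, 54 stood at least 2-fold above all 22 arrays in one or both FBS arrays.

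**Figure D2:**
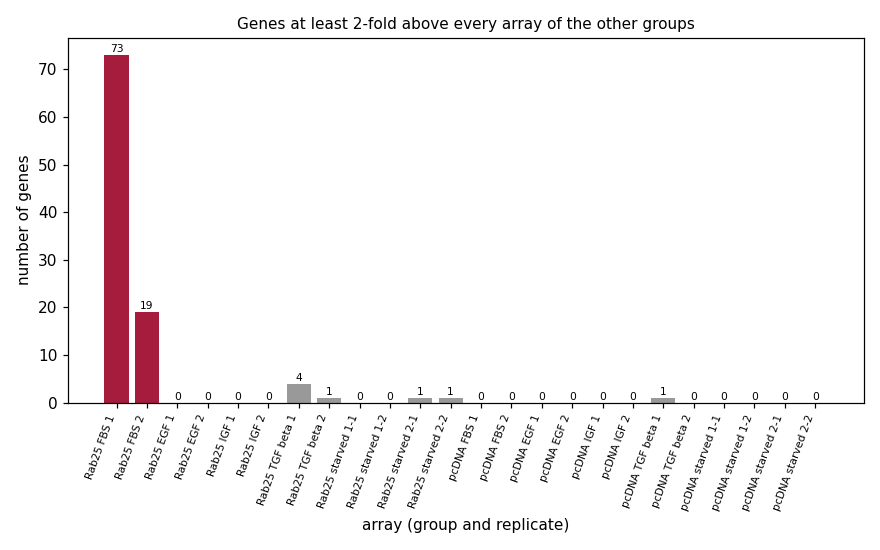
Number of genes (y axis) that lay at least 2-fold above every array of all other groups, for each of the 24 arrays (x axis), with Rab25 FBS in red and the rest in grey. The Rab25 FBS arrays hold 73 and 19 such genes, and the others 0 to 4.

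Of the 81 genes that stood out in either Rab25 FBS array, 62 did so in experiment 1 alone, 8 in experiment 2 alone and 11 in both, and the part of tissue markers in the other calls was not tested. The difference in response between the lines passed for 25 of 11940 genes (0.209%), 17 higher (0.142%) and 8 lower (0.067%) in Rab25 cells. The stromal list held 4 of the higher ones (COL3A1, COL1A2, LUM and POSTN), the macrophage list 2 (TYROBP and C1QB), and the breast, adipocyte and erythroid lists 1 each (SCGB2A2, FABP4 and HBB). SELENOP (2.83, SE 0.49, limma adjusted p = 0.0219) was a further one. The POSTN call was lost without either pcDNA FBS array and without any of 3 of the 4 Rab25 starved arrays (limma adjusted p = 0.0827 to 0.148). Among the lower ones, the endoderm transcription factor gene SOX17 gave 7.42 and 7.33 in Rab25 FBS arrays, against 8.79, 8.80, 8.66 and 8.58 in Rab25 starved arrays, with no overlap. It gave 7.32 and 7.58 in pcDNA FBS arrays, against 7.48 to 7.62 in pcDNA starved arrays, so that with FBS the Rab25 values came down to those of the vector line. The drop was not particular to FBS. In Rab25 cells SOX17 gave 7.70 and 7.33 with IGF, 8.17 and 7.92 with TGF beta, and 8.61 and 8.17 with EGF. The FBS response was -1.33 (SE 0.11, limma adjusted p = 1.63e-06) in Rab25 cells and -0.12 (SE 0.11, adjusted p = 0.55) in pcDNA cells, a difference of -1.21 (SE 0.15, adjusted p = 0.000626). GINS4, a subunit of the replicative helicase, gave 6.65 and 6.20 in Rab25 FBS arrays, against 6.51, 7.20, 7.56 and 7.85 in Rab25 starved arrays. In the pcDNA line it gave 9.09 and 8.53 with FBS, against 7.10, 6.93, 7.08 and 7.08 in starved cells (difference between the lines -2.62, SE 0.51, limma adjusted p = 0.0428). CHRNA5, a nicotinic receptor subunit gene, and LLGL1, a cell polarity gene, differed between the lines by -0.98 (SE 0.16, adjusted p = 0.0133) and -1.05 (SE 0.21, adjusted p = 0.0444), since their response was -0.06 and -0.42 in Rab25 cells, neither called, and 0.92 and 0.63 in pcDNA cells. Without the pcDNA FBS array of experiment 1 the difference was called for none of GINS4, CHRNA5 and LLGL1 (limma adjusted p = 0.184, 0.104 and 0.184), and GINS4 and LLGL1 were also lost without the Rab25 FBS array of experiment 2 (0.0751 and 0.0602). Of 15 alternatives run, the call was lost in 12 for LLGL1, 9 for GINS4 and 3 for CHRNA5, while that of SOX17 was lost in 0.

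**Figure D3:**
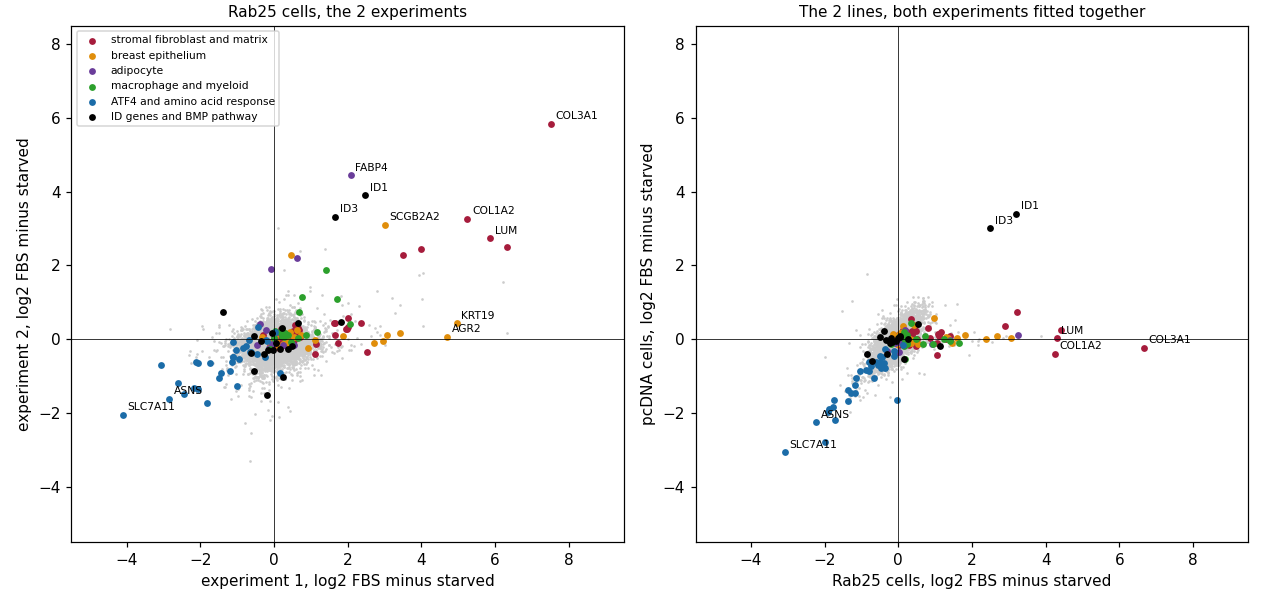
Log2 FBS minus starved of each gene, on the left in experiment 2 (y axis) against experiment 1 (x axis) in Rab25 cells and on the right in pcDNA cells (y axis) against Rab25 cells (x axis) over both experiments, with 6 gene lists in colour and all other genes in grey. COL3A1, COL1A2 and LUM lie to the right in both panels and near 0 for pcDNA cells, whereas ID1, ID3 and the ATF4 list lie along the diagonal.

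The serum-responsive ID genes rose in both lines. ID3, the second BMP-induced member, gave 7.70 and 9.21 in Rab25 FBS arrays, against 6.00, 6.08, 5.67 and 6.12 in Rab25 starved arrays (log2 2.49, SE 0.42, limma adjusted p = 0.00242). In pcDNA cells ID1 rose by 3.40 (SE 0.28, adjusted p = 1.12e-05) and ID3 by 3.002 (SE 0.42, adjusted p = 0.000875), and the pcDNA background was 2.31% of genes higher and 4.44% lower. The rise in Rab25 cells was larger in experiment 2, by 1.42 (SE 0.18, limma adjusted p = 0.00205) for ID1 and 1.66 (SE 0.26, adjusted p = 0.00491) for ID3. Of 20 members of the ID and BMP list, 3 rose and 1 fell in Rab25 cells. MSX1, a homeobox target of BMP, rose by 0.54 (SE 0.11, adjusted p = 0.00852), and the NOTCH and BMP target HEY1 fell by 0.71 on the log2 scale (SE 0.10, adjusted p = 0.001). ID2 and ID4 gave 0.15 and 0.27 and were not called, as were the SMAD inhibitors SMAD6 (-0.02) and SMAD7 (-0.22).

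The ATF4 and amino acid response list fell: 23 of 33 measured members were lower in Rab25 cells with FBS and 0 were higher (median -0.80). SLC7A11, the cystine transporter, gave 8.36 and 9.11 with FBS, against 12.40, 12.51, 11.40 and 10.92 in starved cells (log2 -3.08, SE 0.55, limma adjusted p = 0.00375). ASNS, asparagine synthetase, gave 9.34 and 9.32, against 12.15, 12.21, 10.95 and 10.93 (log2 -2.23, SE 0.44, adjusted p = 0.00674). STC2, the stress-induced hormone stanniocalcin-2, gave 10.26 and 10.71, against 12.46, 12.43, 12.08 and 11.99 (log2 -1.75, SE 0.22, adjusted p = 0.000258). In each of the 3 the FBS arrays lay below all starved arrays, and the starved arrays of experiment 1 stood above those of experiment 2. The glutathione-degrading enzyme gene CHAC1 (-1.71, SE 0.24), the pseudokinase gene TRIB3 (-1.91, SE 0.44), the stress factor genes ATF3 (-1.97, SE 0.49) and DDIT3 (-1.88, SE 0.55), and ATF4 itself (-0.75, SE 0.11) also fell (limma adjusted p = 0.000664, 0.015, 0.0224, 0.0479 and 0.00131). In pcDNA cells 27 of 33 fell, SLC7A11 at -3.07 and ASNS at -2.26, and the difference between the lines was called for 0 of 33. Within Rab25 cells the fall was called for 23 members in experiment 2 (8.27% of all genes lower) and 27 in experiment 1 (10.9%), and its size differed, 18 members being higher and 1 lower in experiment 2 than in experiment 1 (4.2% and 12.1% of all genes). DDIT3 responded by -0.69 in experiment 2 and by -3.07 in experiment 1 (difference 2.38, SE 0.13, limma adjusted p = 4.61e-05). The DDIT3 call over both experiments was lost in 12 of 15 alternatives. Without the FBS array of experiment 1, 8 of the 33 were called lower, where 4.08% of all genes were, and SLC7A11 stood at -2.27 (adjusted p = 0.06).

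Where the promoters of this list bear a letter match to the ATF4-type composite element, the stretch around it is shown, since these members fell together. The motif searched was TGATGNAA on either strand in the 250 bases before the start of each gene, in promoters of RefSeq on GRCh38.p14, where 29 of the list's members had an entry. It was found in 4 of these 29 (13.79%), in 197 of 9593 promoters of genes on the arrays (2.05%) and in 891 of 27305 promoters in all (3.26%). In the lines that follow, read 5′ to 3′ along the gene's strand, capitals mark the match (TTNCATCA where it lies on the other strand). AARS1 encodes alanyl-tRNA synthetase, and SLC1A5 a glutamine transporter.
ATF3 (chr1:212565196-212565243, plus strand): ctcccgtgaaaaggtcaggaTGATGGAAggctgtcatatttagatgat
CHAC1 (chr15:40953242-40953289, plus strand): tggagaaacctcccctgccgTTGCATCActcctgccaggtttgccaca
SLC1A5 (chr19:46784884-46784931, minus strand): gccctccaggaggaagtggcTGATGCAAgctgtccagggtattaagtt
AARS1 (chr16:70289666-70289713, minus strand): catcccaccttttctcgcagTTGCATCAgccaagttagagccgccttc
All 4 genes were called lower with FBS in Rab25 cells, SLC1A5 by -0.80 and AARS1 by -0.79 (limma adjusted p = 0.0204 and 0.0176). A match of letters is a description, not a binding site. Members without one in the stretch searched fell as well, ASNS and STC2 among them. Where a gene has several starts, only a single start was searched, so a match before another start would be missed.

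Genes of growth factor withdrawal fell. Of 27 measured FOXO-linked genes 11 were lower and 0 higher (median -0.30). CITED2, a transcriptional coregulator, gave 10.46 and 10.03 with FBS, against 11.48, 11.39, 11.40 and 11.35 in starved Rab25 cells (log2 -1.17, SE 0.10, limma adjusted p = 3.74e-06). IRS2, the insulin receptor substrate, gave 11.25 and 10.66, against 11.95, 11.91, 11.96 and 12.00 (log2 -0.999, SE 0.16, adjusted p = 0.00191). CDKN1B, which encodes the cell cycle inhibitor p27, gave 10.37 and 9.10, against 11.03, 10.94, 10.28 and 10.29, so that its FBS value of experiment 1 lay above the starved arrays of experiment 2, while within each experiment FBS was the lower (log2 -0.90, SE 0.15, adjusted p = 0.00218). FOXO3 itself fell by 0.46 (SE 0.08, adjusted p = 0.00331), but its 3 probe sets ran from -0.46 to 0.007, with 1 called. CCNG2, an atypical cyclin of quiescent cells, gave 10.05 and 7.49, against 10.59, 10.74, 10.05 and 10.01, a response of -2.54 in experiment 2 and -0.62 in experiment 1 (difference -1.92, SE 0.16, adjusted p = 0.000382), and its call was lost without the FBS array of experiment 2 (-0.89, adjusted p = 0.132). TXNIP, a member of the same list and a thioredoxin inhibitor, gave 12.08 and 9.38, against 10.87, 10.91, 9.33 and 9.47, and was not called over both experiments (0.59, adjusted p = 0.123). In pcDNA cells 8 of the 27 fell, CITED2 at -1.02 among them.

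Counts of the next lists stand beside 2.64% of all genes called higher and 5.08% lower, and most hold few genes. Feedback regulators of ERK signalling were lower at the times sampled, 6 of 14 falling and 0 rising (median -0.37), with SPRY1 at -0.59 (SE 0.12), PHLDA1 at -0.41 (SE 0.09), SPRED2 at -0.44 (SE 0.09) and ETV5 at -0.37 (SE 0.08), at limma adjusted p values of 0.0091, 0.0113, 0.0112 and 0.0105. SPRED2 had 3 probe sets, at -0.44 to 0.14 with 1 called. Of 22 immediate-early genes 2 rose, JUN by 0.50 and KLF10 by 0.57, and 4 fell, among them ATF3 and KLF4 (-1.11, SE 0.19, adjusted p = 0.00291). NF-kB cytokine genes showed 4 of 22 lower and 0 higher, IRF1 at -0.95, ICAM1 at -0.71, CSF3 at -0.67 and IL1B at -0.40, with the CSF3 call lost in 11 of 15 alternatives. Of 19 TGF-beta and SMAD targets SNAI2, a repressor of epithelial genes, rose (0.81), and TGIF1 (-1.09) and NOX4 (-1.03) fell. Of 26 glycolysis and hypoxia genes 3 fell, the glucose transporter genes SLC2A1 (-0.71) and SLC2A3 (-1.04) and NDRG1 (-0.81). SLC2A1 had 2 probe sets, at -0.71 and -0.115, and SLC2A3 had 3, at -1.04 to -0.35, with 1 called for each gene. The calls of PHLDA1, IL1B, NDRG1 and SLC2A1, like that of CSF3, were lost when each array was centred on its median. Of 19 SRF, actin and YAP targets 2 rose, TAGLN (2.04) and MYL9 (0.63), both also contractile genes of smooth muscle and the MYL9 call lost in 9 of 15 alternatives, and of 19 chaperone genes HSPA4 (0.33) and HSPH1 (0.26). CXCR4, a chemokine receptor gene in no list, gave 9.69 and 6.50, against 10.29, 10.38, 9.64 and 9.99 (log2 -1.98, SE 0.47, adjusted p = 0.0174), and its call was lost without the FBS array of experiment 2 (-0.91, adjusted p = 0.204). The potassium channel gene KCNJ2 and the ERK phosphatase gene DUSP5 fell by 1.40 (SE 0.16, adjusted p = 0.000118) and 1.45 (SE 0.38, adjusted p = 0.0292). Against the EGF, IGF and TGF beta arrays of Rab25 cells, DUSP5 was also lower (-1.32, limma adjusted p = 0.0392). CXCR4 (-0.78, adjusted p = 0.297) and KCNJ2 (-0.36, adjusted p = 0.158) were not called there.

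Ribosome biogenesis genes rose modestly, 9 of 27 higher and 0 lower (median 0.24), and 9 of 27 also rose in pcDNA cells (median 0.29). NOP2, an rRNA methyltransferase gene, gave 10.46 and 11.30 with FBS, against 10.15, 10.08, 10.48 and 10.53 (log2 0.57, SE 0.14, limma adjusted p = 0.0215). NOP16 (0.57, SE 0.14), BYSL (0.43, SE 0.10) and DKC1 (0.38, SE 0.08), all of nucleolar assembly, rose as well (adjusted p = 0.0195, 0.0131 and 0.0114). In these 4 genes the FBS value of experiment 1 lay below the starved values of experiment 2, and within each experiment FBS was the higher.

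Cell cycle and cholesterol genes set the experiments apart. Of 33 G1/S and DNA replication genes, 2 rose and 1 fell in experiment 2 (median -0.07, background 2.4% higher and 8.27% lower), against 29 and 1 in experiment 1 (median 0.66, background 14% higher and 10.9% lower). The mean level of the list was 10.28 with FBS in experiment 2, against 10.33 and 10.31 in its starved arrays, and 10.09 with FBS in experiment 1, against 9.39 and 9.41. The starved cells of experiment 1 thus had the lower level, and FBS arrays of both experiments lay near the starved arrays of experiment 2. MCM6, a subunit of the replicative helicase, gave 11.67 with FBS, against 11.65 and 11.65 in experiment 2, and 11.46 with FBS, against 10.38 and 10.16 in experiment 1. Over both experiments CDC25A, the phosphatase that activates CDK2 (0.55, SE 0.13, adjusted p = 0.0171), and SLBP, which binds histone mRNA (0.49, SE 0.09, adjusted p = 0.0053), were the 2 called. Of 32 G2/M and mitosis genes, 0 rose and 2 fell in experiment 2 (median -0.13), against 29 and 0 in experiment 1 (median 0.64). For CDC20, an activator of the anaphase-promoting complex, experiment 2 gave a response of 0.13 and experiment 1 one of 0.84 (difference -0.71, SE 0.15, adjusted p = 0.015). The response in experiment 2 minus that in experiment 1 had a median of -0.81 over the 33 G1/S genes. It was -0.76 over the 32 G2/M genes, against -0.09 over all genes.

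Cholesterol synthesis ran the other way. The 27 measured genes had a median response of 0.00 in experiment 2 and -0.95 in experiment 1, against -0.09 and -0.01 over all genes. HMGCS1, which makes HMG-CoA from acetyl-CoA units, gave 11.52 with FBS, against 11.15 and 11.16 in experiment 2, and 8.75 with FBS, against 10.86 and 10.52 in experiment 1. IDI1, an isomerase of the isoprenoid branch, gave 13.02, against 12.80 and 12.68 in experiment 2, and 10.62, against 12.55 and 12.55 in experiment 1. In both genes the FBS array of experiment 1 lay below all 4 starved arrays and that of experiment 2 above them. Over the 27 genes the response in experiment 2 minus that in experiment 1 had a median of 0.87, against -0.09 over all genes. Over both experiments 2 fell, the regulator gene SREBF2 (-0.77, SE 0.18, limma adjusted p = 0.0187) and the sterol reductase gene TM7SF2 (-0.66, SE 0.19, adjusted p = 0.0393), and neither was called without the FBS array of experiment 1, with TM7SF2 lost in 9 of 15 alternatives. The pcDNA line had medians of 0.18 in experiment 2 and -1.02 in experiment 1 for this list, and 0.11 and 1.10 for the G1/S list.

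**Figure D4:**
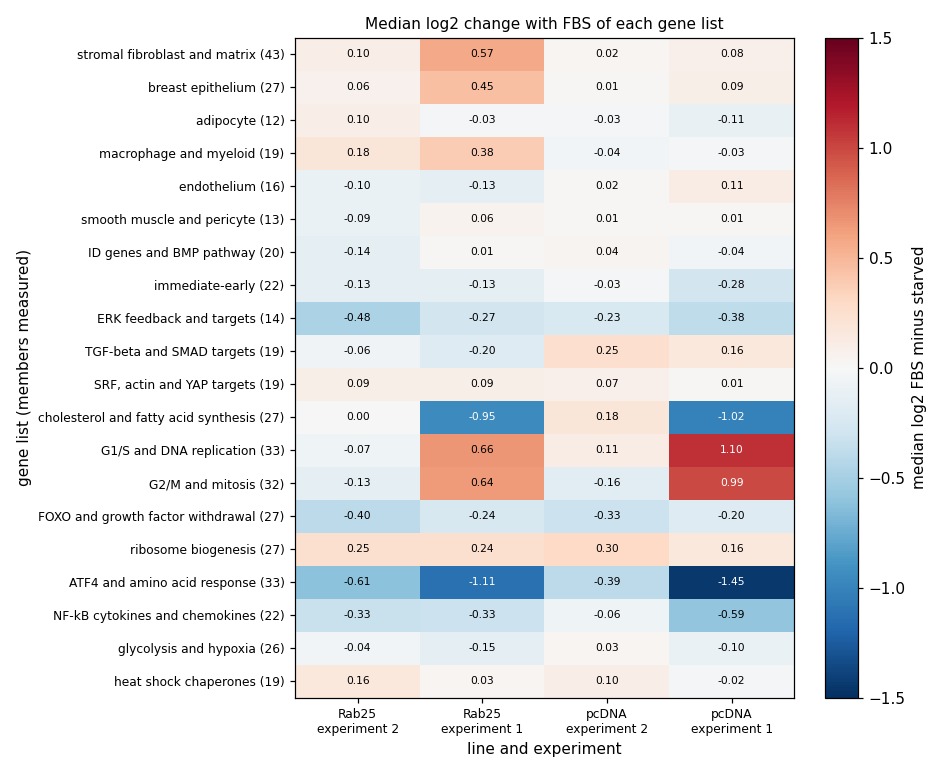
Median log2 FBS minus starved of each gene list (one line down the y axis, members measured in brackets) in each line and experiment (x axis), with red for higher and blue for lower with FBS. The stromal and breast lists are red in Rab25 experiment 1, at 0.57 and 0.45, and near 0 in pcDNA cells, whereas cholesterol, G1/S and G2/M lists change in experiment 1 of both lines and the ATF4 list is blue throughout.

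Over the whole table, FBS changed 1275 genes in Rab25 cells in experiment 2 (287 higher and 988 lower) and 2978 in experiment 1 (1676 higher and 1302 lower), each from 1 FBS array that was assumed to vary like the pairs of starved arrays. The responses differed between the experiments for 1940 genes (16.2%). The share of higher genes rested on the scaling of the arrays, since centring each array on its median gave 1474 higher and 322 lower in experiment 2, and 730 higher and 265 lower over both experiments.

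Set against the EGF, IGF and TGF beta arrays of the same line, which were no part of the starved group, the same 2 Rab25 FBS arrays differed in 736 genes, 227 higher (1.9%) and 509 lower (4.26%). COL3A1 was higher by 6.60 (SE 0.34, limma adjusted p = 5.72e-09), LUM by 4.33 (SE 0.41, adjusted p = 1.22e-05), SCGB2A2 by 3.17 (SE 0.13, adjusted p = 2.17e-10) and ID1 by 3.53 (SE 0.26, adjusted p = 6.58e-07). In the 6 arrays with the other factors COL3A1 lay between 5.04 and 5.58, LUM between 4.58 and 4.81, SCGB2A2 between 5.41 and 5.62 and ID1 between 6.86 and 8.07. Of the ATF4 list 28 of 33 were lower than with the other factors, SLC7A11 at -3.64 and CHAC1 at -2.78, and of the stromal list 19 of 43 were higher.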

How the data were processed

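The log2 expression values were deposited by the authors as one table of 24 arrays. The submitters' processing notes name MAS5 and RMA, without versions and without saying which made which values, so background correction and normalization were theirs and not repeated. Detection calls and scanner files were not analysed here, so a low value cannot be told from background.

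Of 22930 probe sets, 19415 had a single gene symbol in the platform annotation (125 several, 2866 none, 524 controls). Where several probe sets had one symbol, the brightest on average over all 24 arrays stood for the gene, giving 11940 genes. limma 3.58.1 in R 4.3.3 (lmFit, eBayes) fitted all 24 arrays with 10 groups and the experiment as a block, on the log2 scale, with Benjamini-Hochberg adjustment over the 11940 genes at 0.05. A second fit with each group in each experiment apart gave the experiments' own responses and their difference. The experiment pairs the samples by the labels, and same-experiment deviations from group means correlated at 0.26 between Rab25 FBS and Rab25 starved arrays. Over 45 pairs of groups this ran from 0.09 to 0.86 with a median of 0.66, so the groups compared here shared less than most. The number of arrays limits the precision. The script was tested on simulated data.

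The members, the 26 gene lists (530 of 589 genes measured) and the 91 named genes were chosen with earlier results of these data known. Genes named were RAB25 and the 4 markers, the 12 largest called changes each way, the 8 largest each way with that sign in both experiments of pcDNA cells, the 4 largest each way between lines and against other factors, the 4 of lowest p between experiments, and up to 4 called members of each list (2 of lowest p where none was called). Others were taken from the lists or, where said, after their values were seen. Alternatives were other scalings, a median over each gene's probe sets, a filter on dim genes, no block, array weights, another prior, fewer arrays in the fit and each array left out. Some genes are not reported here.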

Additional observations from a re-analysis of the deposited data

Results flagged for a closer look

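Among the named genes, the FBS response differed between the lines by limma's test of the difference (adjusted p under 0.05) for 14. Their log2 response in Rab25 cells minus that in pcDNA cells was higher for COL3A1 (6.91), COL1A2 (4.65), LUM (4.27), POSTN (4.15), FABP4 (3.15), SCGB2A2 (3.01), SELENOP (2.83), TYROBP (1.76), C1QB (1.45) and HBB (0.63). It was lower for GINS4 (-2.62), SOX17 (-1.21), LLGL1 (-1.05) and CHRNA5 (-0.98).

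Between the experiments the response in Rab25 cells differed for 42 named genes by the same kind of test, in a fit where each experiment has 1 FBS array. The log2 response in experiment 2 minus that in experiment 1 was positive for DDIT3 (2.38), FABP4 (2.36), SLC7A11 (2.04), SCGB1D2 (1.82), ID3 (1.66), DUSP5 (1.59), CD36 (1.58), ID1 (1.42), TRIB3 (1.42), ASNS (1.23), TM7SF2 (1.01), SLC2A1 (1.0), ATF3 (0.95), STC2 (0.86), CHAC1 (0.69), SREBF2 (0.63), KLF4 (0.58), NDRG1 (0.51) and NOP2 (0.45). It was negative for IGHG3 (-6.14), MGP (-4.67), AGR2 (-4.64), KRT19 (-4.52), POSTN (-3.84), CFB (-3.17), LUM (-3.12), TFF1 (-2.96), CXCR4 (-2.67), SELENOP (-2.25), COL1A2 (-1.99), CCNG2 (-1.92), COL6A3 (-1.54), TAGLN (-1.5), GINS4 (-1.30), TGIF1 (-0.94), MYL9 (-0.80), POU2AF1 (-0.77), CDC20 (-0.71), IRS2 (-0.64), IGHM (-0.61), CDKN1B (-0.57) and IRF1 (-0.54).

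In the 4 Rab25 starved arrays, 2 genes had an array far from the others by Dixon's test: the lowest value of KRT19 was 4.90 and the highest of SREBF2 was 9.24. Chance gives such a gap in about 1 in 20 groups.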

How the results depend on the processing

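Of 80 named genes called between Rab25 FBS and starved cells, 6 were called under all 15 alternatives (CITED2, COL6A3, ID1, KCNJ2, SOX17 and STC2), and 5 under the 14 that could be run for them, since the filter drops them as dim (C1QB, COL1A2, COL3A1, SCGB2A2 and TYROBP). The call was lost in over 7 alternatives for 13, among them AGR2 and IGHG3 (10 of 14 each), TFF1 (8 of 14), and DUSP5 and HSPH1 (8 of 15 each). The count of 922 genes became 155 with no replicate block, 40 with array quality weights, 45 with the 6 arrays alone and 473 with the 12 Rab25 arrays alone, the last 2 with the block, and 578 to 1694 with 1 array left out (638 without the FBS array of experiment 1, 1694 without that of experiment 2). Quantile normalization called 442 up and 419 down, and centring each array 730 and 265. The count of 25 between the lines became 38 after quantile normalization, 41 after centring, 3 without the dimmest 40% of genes, 11 with array weights and 18 with no replicate block, and 17 to 202 with 1 array left out. Against the other factors, 736 became 154 with no replicate block, 59 with array weights, and 409 to 1888 with 1 array left out, with 355 up and 342 down under quantile normalization, and 479 and 243 with centring. In experiment 2 alone, 1275 became 699 to 727 with 1 starved array left out, 927 after quantile normalization (486 higher, 441 lower) and 1796 after centring, which moved the median of all genes to 0.14, against -0.09. In experiment 1, 2978 became 2150 to 2416 with 1 starved array left out, and the split was 1575 and 1550 after quantile normalization and 1358 and 1564 after centring. The experiment difference of 1940 became 1395 to 1605 with 1 array left out, and split 924 and 933 after quantile normalization and 1799 and 639 after centring. Values that turned sign with 1 array left out were CDC20 (-0.007 to 0.98) and CFB (-0.138 to 2.993), negative without the FBS array of experiment 1, and CHRNA5 (-0.276 to 0.159) and RAB25 (-0.557 to 0.009), positive without that of experiment 2, and CHRNA5 also stood at 0.014 after quantile normalization and 0.031 after centring. Without the FBS array of experiment 1 and without that of experiment 2, the called members were 7 and 26 higher for the stromal list, 3 and 15 for breast, and 4 and 8 for macrophage, where 1.26% and 8.82% of all genes were higher, and 8 and 23 lower for the ATF4 list, where 4.08% and 5.37% of all genes were lower. The causes were not tested. With 1 FBS array in each experiment, each left-out fit rests on the other one, and that array is assumed to vary like the other groups.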

Other observations

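Further genes whose response differed between the lines were chosen for mention after their values were seen. CD74, the invariant chain of class II antigen presentation, had a response 2.81 higher on the log2 scale in Rab25 cells than in pcDNA cells (SE 0.48, limma adjusted p = 0.0169). The protease inhibitor gene A2M was 1.61 higher (SE 0.28, adjusted p = 0.0219) and the complement inhibitor gene SERPING1 1.37 higher (SE 0.16, adjusted p = 0.000293). RAB11FIP3, which encodes an effector of RAB11 GTPases, was the other way, at -0.85 (SE 0.13, adjusted p = 0.00809).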
